A study of Solanum lycopersicum with 15 samples.

Results

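The 3 laccases and 6 class III peroxidases described here, 9 of the 34688 genes in the count table, encode enzymes that can polymerize lignin, and their transcripts were followed over 15 libraries from tomato hairy roots. The members were taken by gene identifier. The laccases were Solyc06g082240, which the study calls SlLAC3-like, and Solyc06g050530 and Solyc05g052370, both called SlLAC12-like. The peroxidases were Solyc07g049240, Solyc07g052510, Solyc07g052530, Solyc02g079500, Solyc02g079510 and Solyc01g006300, which carry no name of their own in the sources used here. All 3 laccases and Solyc07g049240 stand on lists that the study drew from these same libraries, so their direction is not independent evidence.

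The roots were hairy roots of Solanum lycopersicum cultivar M82, that is, roots formed after infection with Rhizobium rhizogenes, grown on Murashige and Skoog medium with 3% sucrose. Lines slscz-hr5 and slscz-hr12 carried Cas9 deletions that ran from exon 1 into exon 2 of SlSCZ and gave early stop codons. In lines slexo1-hr6 and slexo1-hr7, Cas9 mutations in exon 1 of SlEXO1 gave early stop codons. Wild-type M82 roots were transformed without a vector, so an edited gene and the presence of the editing construct cannot be told apart. SlSCZ and SlEXO1 are transcription factors of the root cortex, and the comparisons ask how transcripts change in the young root when either is lost. Each line was 1 root clone, each of the 5 line groups had 3 libraries, and each library came from the terminal 3 cm of 6 to 7 root tips. The libraries were 3′ end sequenced, and they are named below by the number (2, 3 or 4) of their column in the table.

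Laccases are copper enzymes that use molecular oxygen, and class III peroxidases are haem enzymes that use hydrogen peroxide, to turn monolignols into radicals in the cell wall, where these couple into lignin. Both families are large in plants, and individual members differ in the cell type and the wall domain they serve. In Arabidopsis, peroxidases held in place by CASP scaffold proteins build the Casparian strip, the lignin ring that seals the endodermis, whereas laccases and peroxidases together lignify xylem vessels and fibres. In tomato roots a second barrier, the polar lignin cap, forms in the exodermis, the outermost cortical layer.

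The libraries held 2726538 to 8942819 estimated counts, with a median of 4800477. The 2 edited genes were counted in every library and neither was called different in its own mutant (SlEXO1 in slexo1, log2 fold change 0.57, adjusted p = 0.383; SlSCZ in slscz, log2 fold change 0.18, adjusted p = 0.735; both limma-voom), but counts from the 3′ end do not read edits near the start of a gene and so do not check them. None of the 3 endodermis markers (SlCASP1, SlCASP2 and SlMYB36) was at 0 in any library. Their summed level was 33.6 to 48.3 CPM (counts per 1000000 of the scaled library size) in slscz, 24.6 to 36.4 CPM in slexo1 and 44.5 to 51.4 CPM in wild type. In the paper the SlCASP1 reporter was active mainly in the endodermis but also in some inner cortex and exodermis cells, so this sum is not specific to the endodermis. The libraries are whole root tips, in which fewer cells of a type and less RNA per cell cannot be told apart.

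Differences were called at an adjusted p of at most 0.05 (limma-voom, Benjamini-Hochberg over all 16189 genes that passed the filter on low counts) together with a change of at least 1.3-fold. Of the 9 members, 7 passed that filter. Solyc05g052370 and Solyc01g006300 did not, and their counts are given with exact tests. SlLAC3-like and the SlLAC12-like gene Solyc06g050530 passed through mutant libraries alone, because no wild-type library reached the 2.08 CPM the filter asks of at least 3 libraries. In slscz against wild type, 3 of the 7 tested members were called, all higher, where 15.2% of all genes tested were called and 6.84% were called higher. In slexo1 against wild type, 1 of the 7 was called, higher, where 8.84% of all genes were called and 3.89% were called higher. The direct comparison of slscz with slexo1 called 4 of the 7, where 23.8% of all genes were called. Of these 4, 3 were higher in slscz (11% of all genes) and 1 was lower (12.8%). Over the 7 tested members the log2 fold changes had a median of 0.87 in slscz and 0.04 in slexo1 against wild type, beside 0.02 and 0.03 over all genes tested. These counts and medians describe the members that passed the filter, 2 of which passed only where they are high, and support nothing about the families.

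The 3 laccases had at most 4 counts in any wild-type library. With limma-voom SlLAC3-like was called higher in slscz, and no laccase was called in slexo1. SlLAC3-like was counted 1, 6 and 4 times in the slscz-hr5 libraries and 11, 10 and 6 times in slscz-hr12. It was counted 18, 14 and 8 times in slexo1-hr6 and 3, 2 and 7 times in slexo1-hr7. The wild-type libraries had 0, 1 and 0 counts, and every one of the 12 mutant libraries stood above all 3 of them in CPM. Mean levels were 1.52 ± 1.07 CPM in slscz (SD, n = 6), 1.71 ± 1.32 CPM in slexo1 (SD, n = 6) and 0.0398 ± 0.0689 CPM in wild type (SD, n = 3).

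Because 1 read carries the whole wild-type level of SlLAC3-like, the size of its rise is poorly bounded. The ratio of summed counts to summed library size was 23.5 in slscz over wild type (95% exact interval 3.97 to 952) and 25.9 in slexo1 over wild type (4.45 to 1042), where the intervals cover counting error only. In the limma-voom fit, which this gene entered through mutant libraries alone, it rose in slscz, with a log2 fold change of 3.20 (SE 1.06, adjusted p = 0.0416). The fitted value in slexo1 was of the same size, 3.17 (SE 1.05), and missed the threshold at an adjusted p of 0.0579 with limma-voom, whereas edgeR (4.27, adjusted p = 0.0155) and DESeq2 (4.54, adjusted p = 0.00777) called it, as did 4 of the other limma-voom settings. Between slscz and slexo1 the fitted difference was 0.04 (95% interval -1.02 to 1.10, adjusted p = 0.967, limma-voom). The slscz call was lost when any 1 of 7 libraries was left out (slscz-hr12 2 and 3, slexo1-hr6 4, slexo1-hr7 4 and each wild-type library), with an adjusted p of up to 0.174. The estimates of SlLAC3-like were not whole in 9 libraries, by at most 0.271 of a count. Some of its reads were therefore shared with other transcripts, which were not identified here.

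Within each mutant the libraries of the 2 lines did not overlap in the level of SlLAC3-like. In slexo1-hr6 the 3 libraries lay at 1.32 to 3.47 CPM, all above the 0.319 to 1.15 CPM of slexo1-hr7. Among the slscz lines, slscz-hr5 had 0.384 to 1.07 CPM, all below the 1.25 to 2.99 CPM of slscz-hr12. Ordered by mean, the lines ran slexo1-hr6, slscz-hr12, slexo1-hr7, slscz-hr5 and wild type. The first pair and the second pair of neighbours overlapped, while the steps from slscz-hr12 to slexo1-hr7 and from slscz-hr5 to wild type did not. Neither difference between lines passed over all genes (slexo1-hr6 against slexo1-hr7, log2 fold change 1.73, SE 0.57, adjusted p = 0.412; slscz-hr5 against slscz-hr12, log2 fold change -1.33, SE 0.62, adjusted p = 0.990; limma-voom). Against wild type, slscz-hr12 (3.90, adjusted p = 0.00589) and slexo1-hr6 (4.05, adjusted p = 0.00440) were called with limma-voom, while slscz-hr5 (2.56, adjusted p = 0.0739) and slexo1-hr7 (2.32, adjusted p = 0.154) were not. With edgeR slscz-hr5 was called as well (3.23, adjusted p = 0.0489). Only libraries 2 and 3 of slscz-hr12 and of slexo1-hr6 exceeded the 2.08 CPM of the filter. The calls in these 2 lines are therefore not independent of the filter.

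Solyc06g050530, a SlLAC12-like laccase, was counted 1, 10 and 6 times in slscz-hr5 and 8, 2 and 5 times in slscz-hr12. Its counts were 12, 16 and 7 in slexo1-hr6, 4, 6 and 9 in slexo1-hr7, and 2, 4 and 0 in wild type. All 6 slexo1 libraries (0.957 to 3.96 CPM) lay above the 3 wild-type libraries (0 to 0.614 CPM), whereas the slscz libraries (0.384 to 2.17 CPM) overlapped them. The fitted log2 fold change was 2.09 in slexo1 (SE 0.74, adjusted p = 0.0767) and 1.70 in slscz (SE 0.77, adjusted p = 0.140) against wild type, neither called with limma-voom. DESeq2 called the slexo1 value (2.23, adjusted p = 0.0410) and edgeR did not (2.14, adjusted p = 0.0509). This gene lay at the edge of the count filter and dropped out of 8 of the 15 fits that left out 1 library. Of the single lines, slexo1-hr6 alone was called, at 2.49 (SE 0.77, adjusted p = 0.0461, limma-voom), with slexo1-hr7 at 1.71 (adjusted p = 0.248) and the slscz lines at 1.70 and 1.70. Only libraries 2 and 3 of slexo1-hr6 and library 2 of slscz-hr12 exceeded the 2.08 CPM of the filter, so the slexo1-hr6 call is not independent of it.

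The other SlLAC12-like laccase, Solyc05g052370, had the fewest counts of the 3 in total and was below the filter. It was counted 1, 3 and 8 times in slscz-hr5, 5, 2 and 0 times in slscz-hr12, 7, 12 and 5 times in slexo1-hr6, and 5, 3 and 6 times in slexo1-hr7. Wild-type libraries had 0, 0 and 1 counts. The 6 slexo1 libraries (0.479 to 2.97 CPM) again stood above wild type (0 to 0.231 CPM), and the slscz libraries (0 to 1.48 CPM) overlapped it. Mean levels were 0.715 ± 0.579 CPM in slscz, 1.29 ± 0.872 CPM in slexo1 and 0.0769 ± 0.133 CPM in wild type. The exact two-sided permutation test of CPM gave p = 0.0476 for slexo1 against wild type (adjusted over the 3 genotype comparisons 0.143), p = 0.131 for slscz against wild type (adjusted 0.196) and p = 0.212 for slscz against slexo1. The 84 arrangements of a mutant and wild type allow no p under 0.0119, and the 924 of the 2 mutants none under 0.00108. On the scale log2(CPM + 0.5) the slexo1 difference had an exact permutation p of 0.0119, adjusted 0.0357. The ratio to wild type was 11.8 in slscz (1.87 to 488) and 18.9 in slexo1 (3.20 to 767).

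**Figure D1:**
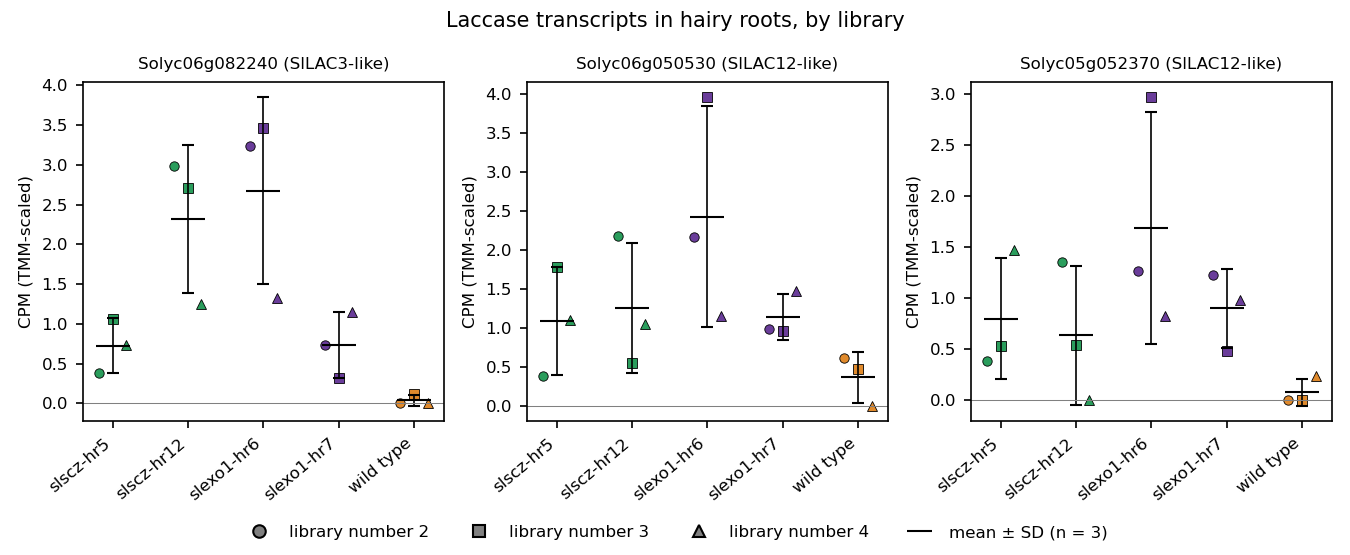
Level of the 3 laccases in each library, in TMM-scaled CPM (vertical axis), for the 5 line groups along the horizontal axis. Points are libraries, with the marker giving the library number, and bars are the mean ± SD of 3 libraries. Wild-type libraries sit at or near 0 in each panel, at most 0.614 CPM, and slexo1-hr6 has the highest mean in all 3.

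Solyc07g049240 was the peroxidase with the largest rise in slscz and overlapped wild type in slexo1. It was counted 40, 34 and 45 times in slscz-hr5 and 27, 25 and 41 times in slscz-hr12. In slexo1-hr6 it was counted 14, 6 and 15 times, in slexo1-hr7 6, 8 and 8 times, and in wild type 7, 11 and 16 times. The lowest slscz library, at 6.03 CPM, exceeded the highest slexo1 library, at 2.52 CPM, and the highest wild-type library, at 3.69 CPM, while slexo1 and wild type overlapped. Mean levels were 8.73 ± 3.38 CPM in slscz, 1.76 ± 0.580 CPM in slexo1 and 2.38 ± 1.21 CPM in wild type. In slscz it rose by a log2 fold change of 1.99 over wild type (SE 0.36, adjusted p = 6.52e-04, limma-voom) and was 2.17 above slexo1 (SE 0.30, adjusted p = 1.21e-05). The slexo1 value against wild type was -0.18 (95% interval -1.06 to 0.70, adjusted p = 0.838, limma-voom).

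Both slscz lines were called for Solyc07g049240, slscz-hr5 at 2.05 (SE 0.39, adjusted p = 0.00165) and slscz-hr12 at 1.93 (SE 0.40, adjusted p = 0.00438) with limma-voom. The slscz call held in all 15 fits that left out 1 library, with values of 1.37 to 2.32. The highest library, slscz-hr5 2 at 15.4 CPM, was also the library with the fewest counts of all. In 5 libraries the estimate was not a whole number, by at most 0.228 of a count, and the missing fraction stood in another gene, Solyc07g047740, in each of these.

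Solyc07g052530 rose in both slscz lines and, like Solyc07g049240, overlapped wild type in slexo1. Its levels were 450, 485 and 408 CPM in slscz-hr5 and 370, 341 and 343 CPM in slscz-hr12. In slexo1-hr6 they were 216, 242 and 231 CPM, in slexo1-hr7 187, 173 and 237 CPM, and in wild type 193, 214 and 248 CPM. No slscz library overlapped slexo1 or wild type, which overlapped each other. The log2 fold change was 0.87 in slscz against wild type (SE 0.13, adjusted p = 8.03e-05) and 0.90 in slscz against slexo1 (SE 0.10, adjusted p = 1.19e-06), both limma-voom. In slexo1 against wild type it was -0.03 (95% interval -0.30 to 0.23, adjusted p = 0.905), and 0.085 where library sizes were used without TMM.

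The rise of Solyc07g052530 was 1.04 in slscz-hr5 (SE 0.11, adjusted p = 1.30e-05) and 0.69 in slscz-hr12 (SE 0.12, adjusted p = 8.28e-04) on the log2 scale with limma-voom. All 3 slscz-hr5 libraries lay above all 3 slscz-hr12 libraries, and the difference between these lines, 0.35 (SE 0.11), did not pass over all genes (adjusted p = 0.722, limma-voom). Its estimates were not whole in any of the 15 libraries, so some of its reads were shared with 1 or more other transcripts that were not identified here.

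Solyc07g052510 was counted 9845 to 29942 times per library and differed between the mutants by a small amount. Its levels were 4288, 4204 and 4023 CPM in slscz-hr5 and 4266, 4223 and 3757 CPM in slscz-hr12. They were 2783, 3295 and 2729 CPM in slexo1-hr6, 2423, 2578 and 3349 CPM in slexo1-hr7, and 3454, 3573 and 3535 CPM in wild type. The 3 genotypes did not overlap, slscz lying above wild type and slexo1 below it. Between slscz and slexo1 the log2 fold change was 0.54 (SE 0.07, adjusted p = 6.33e-06, limma-voom), which was called. Against wild type neither mutant reached the call, slscz at 0.22 (SE 0.08, adjusted p = 0.0742) and slexo1 at -0.31 (SE 0.09, adjusted p = 0.0231, limma-voom), the second being a 1.24-fold lower level and so under the fold threshold.

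Solyc02g079500 moved the other way, being higher in slexo1 and lowest in slscz. It was counted 8, 29 and 39 times in slscz-hr5 and 14, 20 and 30 times in slscz-hr12, which is 3.07 to 7.19 CPM. Counts were 118, 96 and 98 in slexo1-hr6 and 140, 143 and 123 in slexo1-hr7, or 16.2 to 34.5 CPM. In wild type it had 43, 54 and 64 counts, at 13.2, 6.44 and 14.8 CPM. All 6 slexo1 libraries lay above wild type and slscz, and wild-type library 3 fell within the slscz range.

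The difference between slscz and slexo1 in Solyc02g079500 was -2.05 on the log2 scale (SE 0.26, adjusted p = 5.19e-06, limma-voom) and was called in every fit that left out 1 library (-2.16 to -1.94). It rose in slexo1 against wild type by 1.19 (SE 0.25, adjusted p = 0.00431, limma-voom), and both slexo1 lines were called with limma-voom (slexo1-hr6 1.03, adjusted p = 0.0263; slexo1-hr7 1.34, adjusted p = 0.00676). The call in slexo1-hr6 was lost with edgeR (0.89, adjusted p = 0.0624) and DESeq2 (0.85, adjusted p = 0.0604), and the call in slexo1-hr7 held with both. Without wild-type library 3 the slexo1 value was 0.62 and was not called (adjusted p = 0.189). In slscz against wild type the value was -0.86 (SE 0.32) and was not called with limma-voom (adjusted p = 0.0708), whereas edgeR (-1.04, adjusted p = 0.0144), DESeq2 (-1.10, adjusted p = 0.00242) and the limma-voom fit without wild-type library 3 (-1.44, adjusted p = 0.00572) called it lower.

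Solyc02g079510, whose identifier is the next number after Solyc02g079500, did not share this pattern. It had 3.07 to 5.72 CPM in slscz, 1.44 to 4.92 CPM in slexo1 and 2.15 to 6.14 CPM in wild type, and the 3 genotypes overlapped. Its log2 fold change was 0.54 in slscz and 0.04 in slexo1 against wild type, and 0.51 in slscz against slexo1 (95% interval -0.13 to 1.14), none of them called (limma-voom, adjusted p = 0.343, 0.966 and 0.228). In 1 library, slscz-hr5 4, the estimates of both genes were fractional, 38.5424 and 31.4576, and summed to 70, and in the other 14 libraries both were whole numbers.

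Solyc02g079500 made up 54.9 ± 5.43% of the counts of both genes in slscz (SD, n = 6), 88.0 ± 5.00% in slexo1 (SD, n = 6) and 76.2 ± 8.60% in wild type (SD, n = 3). The slscz libraries, at 50 to 61.7%, lay below all others, and slexo1 (80.4 to 93.7%) overlapped wild type (68.3 to 85.3%). With the counts of both genes added together, the difference between slscz and slexo1 was -1.42 and the difference between slscz and wild type -0.44 (adjusted p = 0.315, limma-voom). For the other pair of close identifiers, Solyc07g052530 made up 8.81 ± 1.07% of the counts of itself and Solyc07g052510 in slscz, 6.98 ± 0.534% in slexo1 and 5.83 ± 0.657% in wild type. Both shares were computed after the values of the genes had been seen and are given without a test.

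**Figure D2:**
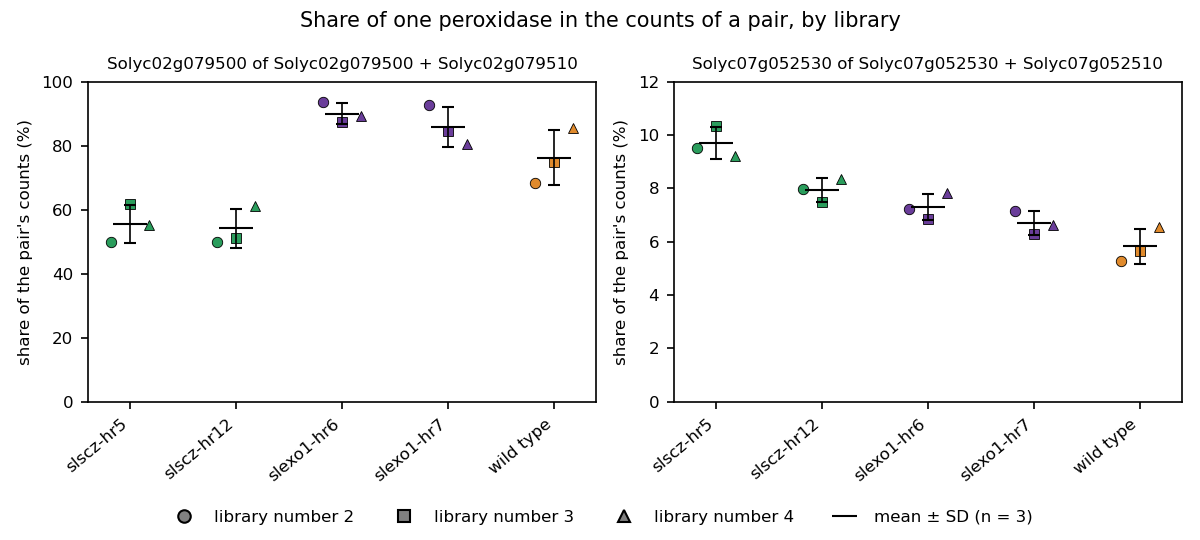
Share of the summed counts of 2 peroxidases with close identifiers that falls on 1 of them (vertical axis, percent) in each library of the 5 line groups. Points are libraries and bars the mean ± SD of 3 libraries. Solyc02g079500 takes 50 to 61.7% of its pair in the slscz libraries and 80.4 to 93.7% in the slexo1 libraries, and the right panel is drawn on a shorter axis.

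Solyc01g006300, the member with the fewest counts (32 in all), had its highest counts in wild type. It was counted 0, 1 and 0 times in slscz-hr5, 1, 1 and 0 times in slscz-hr12, 3, 1 and 2 times in slexo1-hr6, 0, 5 and 2 times in slexo1-hr7, and 4, 9 and 3 times in wild type. The slscz libraries (0 to 0.272 CPM) all lay below wild type (0.693 to 1.23 CPM), and slexo1 (0 to 0.798 CPM) overlapped both. Mean levels were 0.120 ± 0.136 CPM in slscz, 0.374 ± 0.271 CPM in slexo1 and 0.998 ± 0.276 CPM in wild type. The exact two-sided permutation test gave p = 0.0119 for slscz against wild type, the smallest it can give, p = 0.0238 for slexo1 against wild type and p = 0.0606 for slscz against slexo1, or 0.0357, 0.0357 and 0.0606 adjusted over these 3. On the scale log2(CPM + 0.5) the slexo1 difference no longer passed (exact permutation p = 0.0476, adjusted 0.0671), and the slscz difference did (adjusted 0.0357). Its 3 counts in slscz against 16 in wild type correspond to an 8.62-fold lower level in slscz, with a counting interval of 2.47 to 46.2. In exact tests that left out 1 library, the slexo1 difference missed the threshold in 8 of 15 (adjusted p up to 0.0804) and the slscz difference in the 3 without a wild-type library (adjusted p up to 0.0714), where fewer arrangements are possible.

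**Figure D3:**
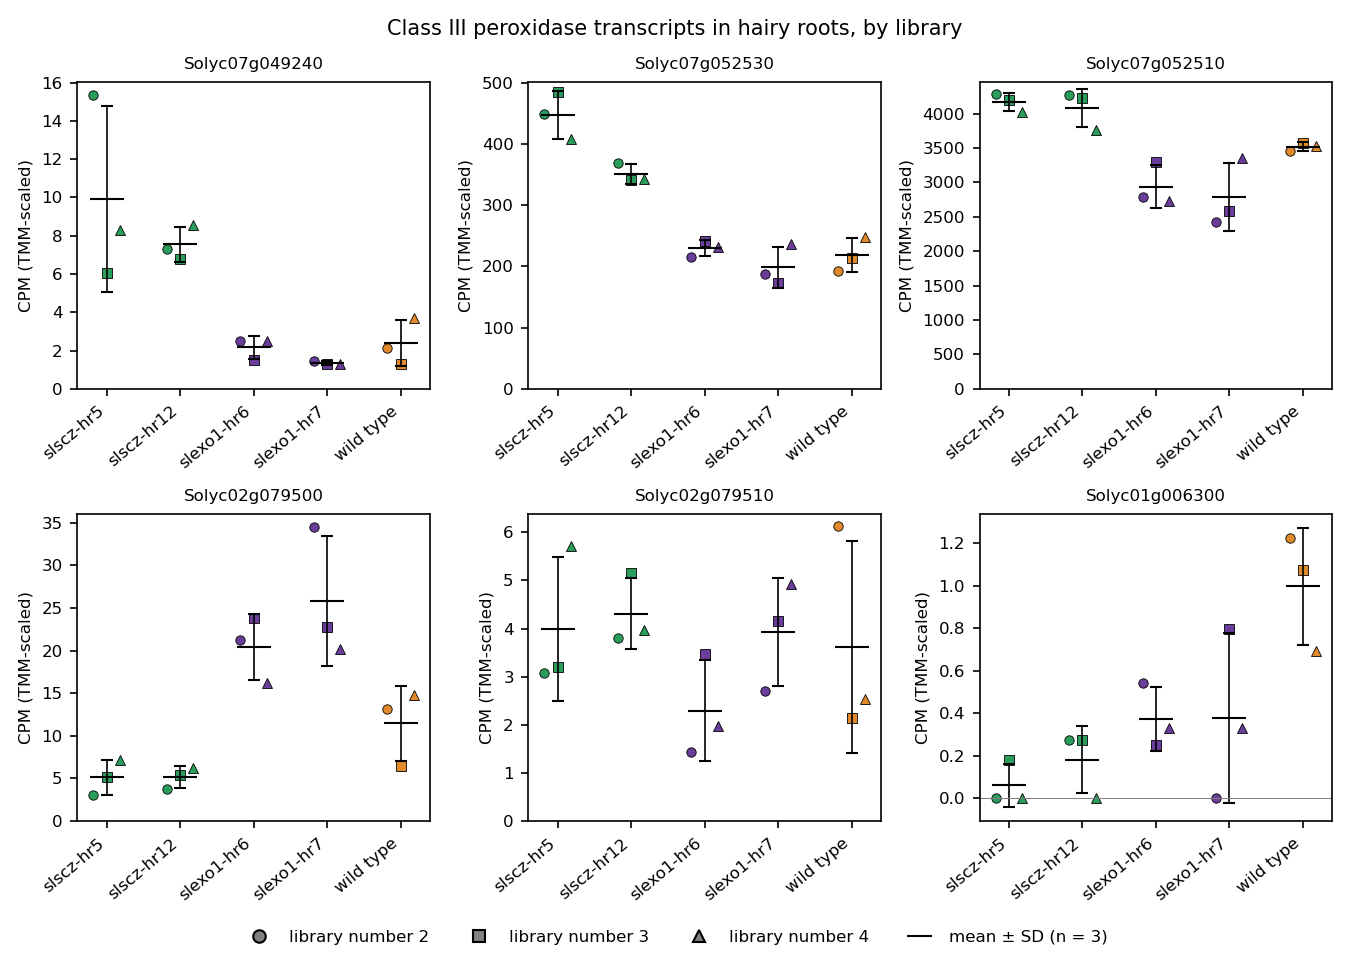
Level of the 6 class III peroxidases in each library, in TMM-scaled CPM (vertical axis, from 0, with its own range in each panel), for the 5 line groups. Points are libraries, with the marker giving the library number, and bars are the mean ± SD of 3 libraries. The slscz libraries stand above all others for Solyc07g049240, Solyc07g052530 and Solyc07g052510 and below slexo1 for Solyc02g079500.

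Over the 5 peroxidases that were tested, the direct comparison of slscz with slexo1 called 4, with Solyc07g049240, Solyc07g052530 and Solyc07g052510 higher in slscz and Solyc02g079500 lower. The 2 laccases tested were not among them, at 0.04 for SlLAC3-like and -0.39 for Solyc06g050530 (95% interval -1.28 to 0.50, adjusted p = 0.535, limma-voom). Solyc05g052370 was likewise without a call in that comparison. The contrasts against wild type share the same 3 wild-type libraries, so their values stand side by side and were not correlated. Groups did not overlap for 4 of the 7 tested members in slscz against wild type (19% of all genes tested), for 4 in slexo1 against wild type (16.2%) and for 4 in slscz against slexo1 (15.2%).

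**Figure D4:**
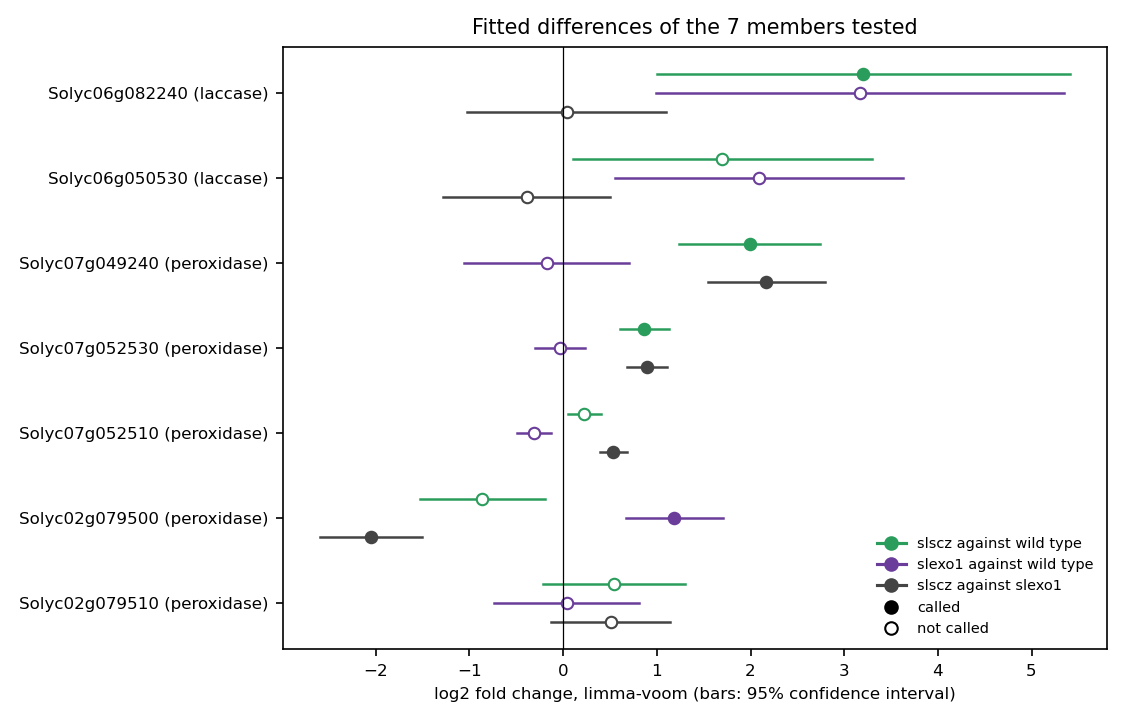
Fitted log2 fold change (horizontal axis) of the 7 tested members in slscz against wild type, slexo1 against wild type and slscz against slexo1, with 95% confidence intervals from limma-voom. Filled points were called and open points were not. Against wild type the intervals of SlLAC3-like, counted once there, are the widest, and Solyc02g079500 lies at -0.86 in slscz and 1.19 in slexo1.

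Taken line by line against wild type, the calls among the 7 tested members were 2 in slscz-hr5 (5.42% of all genes were called higher), 3 in slscz-hr12 (4.99%), 3 in slexo1-hr6 (4.23%) and 1 in slexo1-hr7 (1.9%), each of them higher. Solyc07g049240 and Solyc07g052530 were called in both slscz lines, and Solyc02g079500 was called in slexo1-hr7 and, with limma-voom but neither edgeR nor DESeq2, in slexo1-hr6. SlLAC3-like added the third call in slscz-hr12, and both tested laccases added the rest in slexo1-hr6. Both laccases passed the filter only through libraries of these 2 lines, so these laccase calls are not independent of the filter. Between the lines of a genotype no member was called by limma-voom, edgeR or DESeq2, where limma-voom called 0.346% of all genes in slexo1-hr6 against slexo1-hr7 and 0.105% in slscz-hr5 against slscz-hr12. An unadjusted p of under 0.05 (limma-voom) was reached by 2 of the 7 tested members in each of these comparisons, against 7.19% of all genes between the slexo1 lines and 4.77% between the slscz lines, and none of these passed after adjustment. Between the slexo1 lines they were SlLAC3-like and Solyc02g079510, and between the slscz lines they were SlLAC3-like and Solyc07g052530.

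Other genes of lignin synthesis and of the barriers that the study names were read from the same fits, and 9 of the 10 listed were in the table and 8 were tested. These genes were listed with earlier results of these data known, so their calls are not independent evidence. In slscz against wild type, 3 of the 8 were called (15.2% of all genes). Solyc03g097500, a gene of phenylpropanoid metabolism, rose by 4.22 (SE 1.38, adjusted p = 0.0394) in slscz, and SlMYB36 and SlMYB36-b, related to the Arabidopsis regulator of Casparian strip genes, fell by 0.71 and 0.75 on the log2 scale (adjusted p = 0.0123 and 0.0174, limma-voom). In wild type Solyc03g097500 had a median of 0.462 CPM and at most 2.15 CPM. It therefore reached the filter's 2.08 CPM in 3 libraries only through mutant libraries, where it is high. In slexo1 against wild type, 3 were called (8.84% of all genes). Solyc07g008360 (4CL1), which activates hydroxycinnamic acids on the way to monolignols, rose by 1.81 (adjusted p = 0.0475, limma-voom). 4CL1 had at most 1.23 CPM in wild type and 1.04 CPM in slscz, so it passed the 2.08 CPM filter through slexo1 libraries alone. SlCASP1 and SlCASP3, members of the scaffold family, fell by 0.98 and 0.74 (adjusted p = 0.00324 and 0.0120, limma-voom). In slexo1 Solyc03g097500 had a nearly equal value, 4.19 (SE 1.37), that was not called with limma-voom (adjusted p = 0.0555) and was called with edgeR (adjusted p = 0.0142) and DESeq2 (adjusted p = 0.00998). Its slexo1 libraries (1.28 to 15.4 CPM) overlapped wild type (0 to 2.15 CPM). There slexo1-hr6 was called (4.79, adjusted p = 0.0166) and slexo1-hr7 was not (3.58, adjusted p = 0.112, limma-voom). Of the slscz lines, slscz-hr12 was called for Solyc03g097500 (4.75, adjusted p = 0.0172) and slscz-hr5 was not (3.71, adjusted p = 0.0620, limma-voom). Without wild-type library 3 none of the 8 was called in slexo1, and 1 was called in slscz. Line by line with limma-voom, SlCASP1 was called in both slexo1 lines (adjusted p = 0.0197 in slexo1-hr6 and 0.00884 in slexo1-hr7). 4CL1 was called in slexo1-hr6 (0.00111) and not slexo1-hr7 (0.174), and SlCASP3 in slexo1-hr7 (0.00642) and not slexo1-hr6 (0.114). SlMYB36 was called in slscz-hr5 (0.0171) and not slscz-hr12 (0.105), and SlMYB36-b in neither (0.0515 and 0.102).

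Between slscz and slexo1, 5 of the 8 were called (23.8% of all genes). SlCASP1 (0.92, adjusted p = 3.25e-04) and SlCASP3 (0.95, adjusted p = 5.92e-05) were higher in slscz with limma-voom. Against wild type both were called lower in slexo1, and neither was called in slscz (-0.06 for SlCASP1 and 0.21 for SlCASP3). 4CL1 (-2.36, adjusted p = 0.00151), SlMYB36 (-0.56, adjusted p = 0.0128) and SlMYB36-b (-0.63, adjusted p = 0.0117) were lower in slscz with limma-voom. The 4CL1 value is limited in the same way as above, because the gene was tested only where slexo1 is high. SlCASP2 and SlSGN3, a receptor kinase related to the Arabidopsis one that surveys the Casparian strip, were tested and not called in any of the 3 comparisons, and Solyc02g088160 was below the filter. SlCASP1 and SlMYB36 are also endodermis markers, so 1 of the 3 endodermis markers moved in each mutant against wild type, and their part in the levels of the 9 members was not tested.

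For each tested member, the 1 gene whose log2 CPM was most alike over the 15 libraries was looked up among 16188 others, as a description in which genotype and library are shared by both genes. The closest match of all was Solyc02g080790 for Solyc07g052530, with Pearson r = 0.98 and Spearman rho = 0.97, and that gene was 3.90 higher in slscz than in wild type on the log2 scale. Solyc02g079500 was matched at r = 0.97 by Solyc10g051020, which was 1.43 higher in slexo1 and 1.00 lower in slscz than in wild type. Over the 7 tested members the best r ranged from 0.85, for Solyc02g079510, to 0.98. Among the members themselves the nearest to each other were Solyc07g049240 and Solyc07g052530, at r = 0.90 over the 15 libraries.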

How the data were processed

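RNA was sequenced from the 3′ end (QuantSeq) in 15 hairy-root libraries. The authors trimmed the reads and quantified them with kallisto (0.46.2 per the submitters' processing notes) against the tomato ITAG4.1 transcripts, and deposited estimated counts per gene. Because kallisto divides reads between similar transcripts, 4.02 to 5.39% of the values in a library were not whole, and counts were rounded here. Gene names come from the paper. None of the identifiers matched the RefSeq gene table, and gene lengths were not used, so levels are not compared between genes. The exceptions are the shares of counts within the peroxidase pairs and the summed endodermis markers, which serve to compare libraries.

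The members and lists were chosen with earlier results of these data known. The text names all 9 members, the listed genes of lignin synthesis and the barriers and, for each tested member, the most similar gene, of which those of 2 members are printed.

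Counts were filtered (filterByExpr, minimum count 10), scaled by TMM and fitted with limma-voom (R 4.3.3, limma 3.58.1, edgeR 4.0.16) over all 15 libraries, as 3 genotypes and as 5 lines. In the fits by line, p-values measure the spread between libraries of the same clone. In the fits by genotype and the exact tests, the 6 libraries of a mutant came from 2 clones and were treated as separate. Those p-values mix the spread within and between the 2 clones and do not measure the spread over many independent clones. Wild-type libraries are numbered 2 to 4 in the table and 1 to 3 in the labels, so no wild-type column was tied to a single sample, and column numbers serve only to name libraries, to leave one out and in the replicate block. The titles of slexo1-hr7 also run 1 to 3 where its descriptions and columns run 2 to 4. Alternatives were edgeR, DESeq2 (1.42.0), other scaling and filters, other thresholds, a replicate block, line as a random effect, only the groups compared, quality weights, leaving out each library and, chosen after seeing the data, summing Solyc02g079500 with Solyc02g079510. On simulated counts for slscz against wild type (15920 genes that passed the filter), 68.9% of 90 genes changed by 1 on the log2 scale and 94.3% of 105 changed by 2 were called. Of the unchanged genes, 8 were called. The simulation gave the lines of a mutant the same mean and took changed genes from all levels. These shares therefore do not cover differences between lines or genes with few counts.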

Additional observations from a re-analysis of the deposited data

Results flagged for a closer look

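In 18 groups of 6 libraries (the 9 members in slscz and in slexo1), 2 libraries stood far from the other 5. The cutoff passes about 1 in 20 groups of 6 values drawn from a single normal distribution. These groups pool 2 lines and some hold few counts, so that rate need not apply to them. Solyc07g049240 was at 15.4 CPM in slscz-hr5 2, with the next slscz library at 8.55 CPM and the lowest at 6.03 CPM. Solyc05g052370 was at 2.97 CPM in slexo1-hr6 3, with the next slexo1 library at 1.26 CPM and the lowest at 0.479 CPM. The 3 wild-type libraries were too few to be examined in this way.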

How the results depend on the processing

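In slexo1 against wild type, where 1 member was called, the count was 2 with edgeR, 2 with library size in place of TMM, 2 with the adjusted p alone, 3 with DESeq2, 3 with line as a random effect, 3 with library quality weights, 4 with no filter and 0 at a log2 fold change of at least 1.3, and it was 0 to 2 when 1 library was left out (0 without wild-type library 3). Solyc02g079500 was among the genes called in each of these except at the log2 threshold and without that library. For slscz against wild type the count of 3 stayed at 2 to 4, and for slscz against slexo1 the count of 4 became 2 at the log2 threshold. For single lines, slscz-hr5 had 4 with no filter and 1 at the log2 threshold, slexo1-hr7 2 with the adjusted p alone and 2 with quality weights, and slexo1-hr6 1 in the fit of only the groups compared. Leaving out 1 library gave 1 to 3 calls in slexo1-hr6 and 0 to 2 in slexo1-hr7 (1 and 0 without wild-type library 3). Of the other lignin genes, 1 was called in each of the 3 genotype comparisons at the log2 threshold, and leaving out 1 library gave 0 to 4 in slexo1 and 1 to 3 in slscz.

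Small differences changed sign. Solyc02g079510 in slexo1 was -0.088 with edgeR and -0.13 with DESeq2 (-0.39 to 0.33 leaving out 1 library). SlLAC3-like in slscz against slexo1 was -0.14 with edgeR, -0.16 with DESeq2 and -0.051 without TMM (-0.38 to 0.31). In slexo1, Solyc07g052530 was 0.085 without TMM (-0.12 to 0.040 leaving out 1 library) and Solyc07g049240 -0.79 to 0.16. The cause was not tested. Library size in place of TMM moved the median of all genes in slexo1 to 0.15, against 0.03 with TMM, and the higher share of its calls to 72.8%, against 44.0%; in slscz against slexo1 that share was 32.5%, against 46.1%.

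Of the 18 same-numbered pairs of mutant libraries, 9 had deviations correlated above 0.1 (-0.056 to 0.42), and of the 12 with a wild-type column, whose number differs from the labels, 0 did. Not every pair passed 0.1, a chosen cutoff, so the numbers were not taken to pair the samples. The same-numbered mean nevertheless exceeded the other mean in all 6 pairs of mutant lines and in all 4 pairs of a mutant line with wild type. Every library correlated best with its own number in 1 of these 6 and in 1 of these 4, so a shared batch by number was not excluded. With the column number as the replicate block, 1 member was called in slexo1, 3 in slscz and 4 between them. Few counts limit the 3 laccases, Solyc01g006300 and the wild-type side of Solyc03g097500.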
